A study of Mus musculus with 16 samples.

Results

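The kinesin family was followed in antigen-specific CD4+ T cells that had met no antigen, transient antigen or persistent antigen in the mouse. Its members were taken by symbol: every gene named Kif or Kifc with a number that had a probe set assigned to that symbol alone. There were 41 such genes among 18193, and each was represented by the probe set whose mean over all 16 arrays was highest. By their known main role 14 were placed with the mitotic kinesins, 15 with the transport kinesins and 12 in a remaining class. The cells were AND T cells, CD4+ cells with a transgenic receptor for a moth cytochrome c peptide. Lymph node cells marked by CD90.1 were transferred into B10.BR recipients aged 6 to 8 weeks, and CD4+CD90.1+ cells were sorted 60 h later. All recipients carried the TIM transgene, which holds the peptide under doxycycline control. Recipients of the transient and persistent groups carried Ii-rTA and had short or long doxycycline. Recipients of the no-antigen groups lacked Ii-rTA, so that genotype differed together with antigen. Their labels conflict on doxycycline: the titles of all 5 say none, while the treatment text of 3 of them (PBS replicate 3 and both FGK arrays) lists it for the whole experiment and that of the other 2 is absent. FGK45.5 (called FGK here), which stimulates CD40 and so activates dendritic cells, was given to 2 recipient groups with 2 arrays each (no antigen and transient antigen) and to 1 with 3 arrays (persistent antigen). PBS was given in the matching groups without antigen, with transient antigen and with persistent antigen, with 3 arrays each. The labels do not state that replicates were separate animals, and p-values then cover only the spread among these arrays, which may be technical in part. In a sorted population fewer cells in division and less RNA per cell cannot be told apart.

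Kinesins are motors that use ATP to move along microtubules or to take their ends apart. In mitosis they separate the spindle poles, bring chromosomes to the middle of the spindle and build the midzone at which the cell divides, and their mRNAs are made mainly late in the cell cycle. Transport kinesins carry vesicles, organelles and protein complexes along microtubules, in most cases outward, and mostly independently of division. A T cell that meets its antigen leaves rest and goes through several divisions within days. Levels below are log2(intensity + 1) of the deposited values and are read between arrays for a given probe set, not between genes. Arrays differed in mean intensity (83.5 to 121), and this was not evened out further. A gene was called where its limma p-value, adjusted over all 18193 genes, was under 0.05. Arrays with the same replicate number deviated together, so counts are also given from the same fit with the replicate number as a block, named the blocked fit.

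The promoters of 33 of the 41 genes were found in RefSeq (build GRCm38.p6), 37 windows in all, each from 250 bases before to 50 after the start. A pair of motifs known from genes of late cell cycle was searched on both strands, CCAAT, the site of NF-Y, and TTTGAA, the core of the cell cycle homology region, together with GCGGGAA, an E2F-type sequence. TTTGAA was found in 11 of 13 mitotic kinesin windows (84.6%), in 1 of 12 transport windows (8.33%) and in 2 of 12 windows of the remaining class (16.7%), against 17.9% of all 32851 promoters. CCAAT was found in 9 of the 13 mitotic windows (69.2%), in 4 of 12 in each of the other classes (33.3%), and in 37.4% of all promoters. GCGGGAA was in none of the 13 mitotic windows, in 0 of 12 transport windows and in 2 of 12 of the remaining class, against 4.6% of all promoters. Among promoters of genes with a probe set the shares were 13.4% for TTTGAA, 37.4% for CCAAT and 6.72% for GCGGGAA. These motifs do not overlap each other in their letters, and a match describes the sequence only. The 250 bases before the start are shown for 4 chosen genes, with matches to either motif, read on either strand, in capitals (CCAAT reads ATTGG and TTTGAA reads TTCAAA on the opposite strand). They are Kif11 (chr19:37376132-37376381, plus strand) and Kif22 (chr7:127042421-127042670, minus strand), whose mRNAs were called higher under persistent antigen, Kif15 (chr9:122950831-122951080, plus strand), a mitotic kinesin that was not called, and Kif1b (chr4:149307699-149307948, minus strand, the window of 1 of its starts), the transport kinesin with the largest decrease.
Kif11: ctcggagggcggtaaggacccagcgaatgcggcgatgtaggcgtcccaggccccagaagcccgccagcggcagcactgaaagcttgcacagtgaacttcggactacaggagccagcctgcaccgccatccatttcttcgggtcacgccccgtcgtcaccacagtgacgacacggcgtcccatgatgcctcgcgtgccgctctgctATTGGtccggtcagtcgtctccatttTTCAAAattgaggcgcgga
Kif22: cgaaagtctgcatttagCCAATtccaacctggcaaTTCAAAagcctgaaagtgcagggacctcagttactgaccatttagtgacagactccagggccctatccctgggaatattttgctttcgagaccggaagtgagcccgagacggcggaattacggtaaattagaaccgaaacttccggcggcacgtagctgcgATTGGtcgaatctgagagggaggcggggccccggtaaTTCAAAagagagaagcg
Kif15: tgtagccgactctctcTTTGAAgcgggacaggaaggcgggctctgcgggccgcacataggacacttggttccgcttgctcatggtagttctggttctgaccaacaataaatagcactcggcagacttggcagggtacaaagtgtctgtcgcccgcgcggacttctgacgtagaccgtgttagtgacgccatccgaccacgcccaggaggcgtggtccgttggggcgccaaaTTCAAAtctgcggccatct
Kif1b: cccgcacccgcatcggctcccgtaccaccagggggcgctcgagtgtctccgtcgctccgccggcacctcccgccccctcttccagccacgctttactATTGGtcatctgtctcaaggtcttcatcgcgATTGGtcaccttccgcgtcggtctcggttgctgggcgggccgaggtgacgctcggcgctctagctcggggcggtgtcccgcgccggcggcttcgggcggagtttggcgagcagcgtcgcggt
In Kif11 the CCAAT match lay 45 bases and the TTTGAA match 19 bases before the start, and in Kif22 the nearest matches lay 54 and 17 bases before it. Kif15 held TTTGAA 19 bases before the start as well, with no CCAAT, while the Kif1b window held CCAAT and no TTTGAA. No other called mitotic kinesin was arranged like Kif11 and Kif22, with both motifs before the start. Kif2c, with the largest increase, held no CCAAT, and its TTTGAA lay 103 bases before the start. Kif20b held no CCAAT, and in Kif18b, Kif20b, Kif23, Kif4 and Kifc5b TTTGAA lay only after the start. Of 9 windows of mitotic kinesins called higher under persistent antigen (PBS, blocked fit), 6 held CCAAT and 8 TTTGAA. Those not called held them as well: Kif14 and Kifc1 both motifs, Kif15 only TTTGAA and Kif2b only CCAAT.

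Replicate 2 arrays stood apart from the others in mean intensity. Their mean intensities were 83.5 to 101, against 106 to 121 in replicates 1 and 3. The first principal component (46.7% of the variance) put them between 9.11 and 75.1, against −54.5 to 9.69, with a slight overlap. T cell markers were present: all 7 measured of 8 listed lay above the median probe set on average. The list holds neither Cd4 nor the gene of CD90, so the sort for CD4+CD90.1+ cells was not checked by it. Markers of other cells also lay above that median. They were 3 of 6 measured for dendritic cells and macrophages, 1 of 3 for NK and CD8 T cells and 2 of 4 for granulocytes. For erythrocytes it was 0 of 2. The summed intensities of the T cell markers were 6697 to 7568 in persistent PBS arrays, against 7507 to 9041 in no-antigen PBS arrays, and 6122 to 7681 in transient FGK arrays, against 7833 to 10140 in transient PBS arrays. B cell markers (5 of 6 measured) summed to 314 to 437 in persistent PBS arrays, against 225 to 285 in no-antigen PBS arrays, and to 323 to 368 in transient FGK arrays, against 214 to 300 in transient PBS arrays. In both comparisons the B cell sums were higher without overlap, while the T cell sums were lower, without overlap in the second. Of the B cell genes 3 of 5 lay above the median probe set of 4.37 in log2: Cd22 at 6.41 to 8.32, Ms4a1 at 4.45 to 7.66 and Blk at 4.67 to 6.34 over the 16 arrays. Cd79b at 3.73 to 4.93 and Cd79a at 3.13 to 3.93 had lower means. The part of these markers in the differences below was not tested. In replicate 2 the no-antigen arrays also bear numbers from another run than the arrays with antigen. The number of arrays limits the precision of every value.

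The first comparison, with PBS throughout, was of persistent antigen against none and addressed lasting stimulation. Mitotic kinesins were higher: 7 of 14 were called, and 10 of 14 in the blocked fit, none in either fit lower. Among transport kinesins 0 of 15 were called higher and 1 lower, with 2 lower in the blocked fit, and in the remaining class 1 of 12 was called higher, 2 in the blocked fit. Over the whole family that made 8 higher and 1 lower, where 3.57% of all genes were called (2.2% higher and 1.36% lower). The blocked fit made it 12 higher and 2 lower, where 16.7% of all genes were called (9.93% higher and 6.79% lower). The median difference was 1.53 over the mitotic kinesins, −0.14 over the transport kinesins and 0.05 over the remaining class, beside −0.03 over all genes. Arrays of the 2 groups did not overlap for 9 of 14 mitotic kinesins, all higher under persistent antigen, while 8.4% of all genes were higher and 9.64% lower without overlap. Single arrays ended 4 of these calls: that of Kif2c without no-antigen PBS replicate 2 or persistent PBS replicates 1 or 3, of Kif23 without no-antigen PBS replicates 2 or 3 or persistent PBS replicates 1 or 3, and of Kif18a and Kif24 without no-antigen PBS replicate 3 or persistent PBS replicate 1 (limma adjusted p of 0.053 to 0.1, both for Kif23). When all probe sets of a gene were averaged, Kif2c differed by 1.34 (limma adjusted p = 0.0061), Kif23 by 0.94 and Kif18a by 0.81, still called. Kif1b at −0.44 (limma adjusted p = 0.37) and Kif24 at 0.34 (limma adjusted p = 0.19) were then not called. Within replicates 1, 2 and 3 the mitotic median difference was 1.57, 1.16 and 1.73. Without persistent PBS replicate 1 the count of 9 called kinesins was 5, while the blocked count of 14 stayed between 13 and 14 when single arrays were left out.

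**Figure D1:**
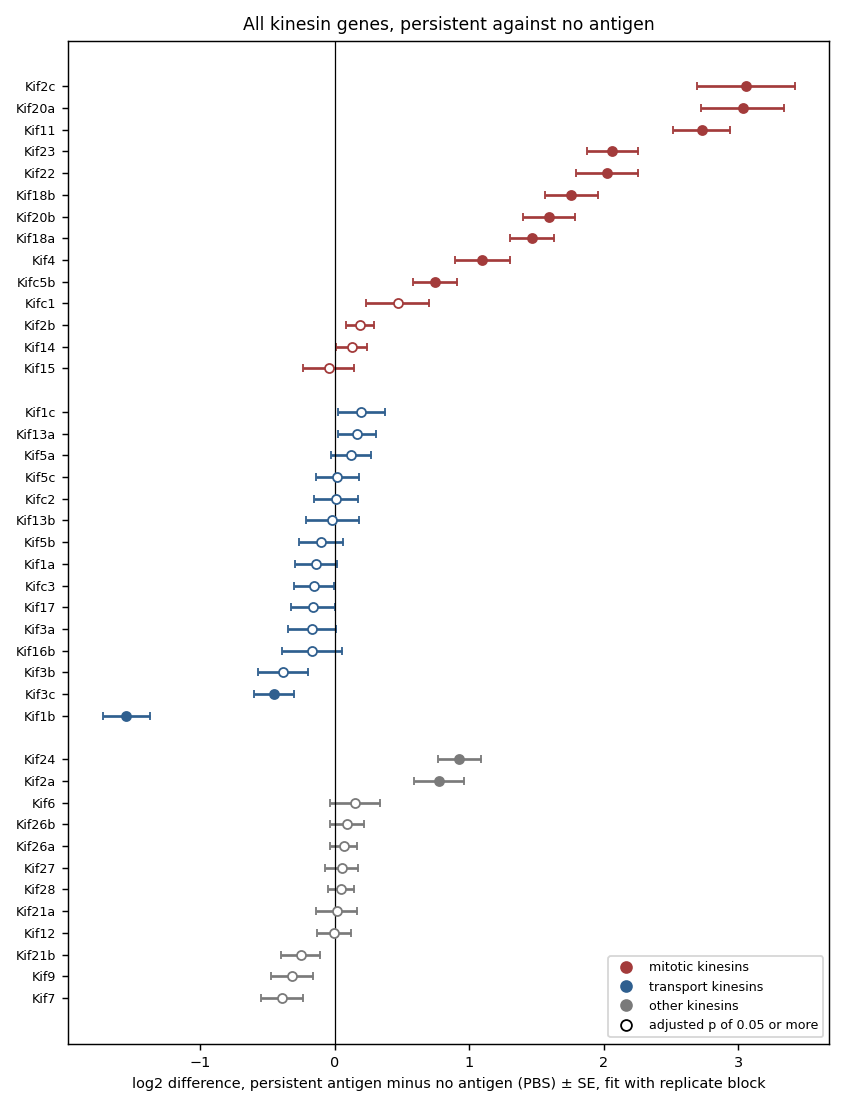
Log2 difference between persistent antigen and no antigen (both PBS, 3 arrays each) for all 41 kinesin genes, by class, with bars of ± 1 standard error of the blocked fit; filled points have an adjusted p under 0.05 in that fit. The 10 filled mitotic kinesins lie between 0.75 and 3.06, and Kif1b at −1.55 is the lowest point.

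Among motors of the spindle itself, Kif11, the tetrameric motor that pushes the spindle poles apart, had levels of 9.18, 8.73 and 8.83 in persistent PBS arrays, against 6.75, 5.78 and 6.03 in no-antigen PBS arrays. The groups lay far apart, and the difference was 2.73 ± 0.42 (estimate ± standard error, limma adjusted p = 0.002), a fold of 6.62. Kif15, which can stand in for Kif11 in holding poles apart, was at 4.66, 6.00 and 4.88 in persistent PBS arrays and at 4.87, 5.79 and 5.01 in no-antigen PBS arrays. These values overlapped fully, replicate 2 being the highest in both groups, and the difference was −0.05 ± 0.43 (limma adjusted p = 0.99, 95% interval −0.98 to 0.88). Kif15 had only 1 probe set, with a mean of 5.20 and its highest level, 6.37, in no-antigen FGK replicate 2. No other probe set could thus show whether it reports changes of the transcript. Kifc1 and Kifc5b are minus-end motors that cross-link spindle microtubules near the poles, and as close copies of each other their probe sets may share signal. Kifc5b was at 4.81, 4.48 and 5.12 in persistent PBS arrays, against 4.20, 3.96 and 4.01 in no-antigen PBS arrays. Without overlap it was 0.75 ± 0.24 higher, which passed only in the blocked fit (limma adjusted p = 0.13, and 0.0031 blocked). Kifc1 was at 5.12, 3.78 and 4.14 in persistent PBS arrays and 3.88, 4.18 and 3.56 in no-antigen PBS arrays, with overlap. Its difference of 0.47 ± 0.33 was not called in either fit (limma adjusted p = 0.66, and 0.22 blocked).

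Among motors that act on chromosomes and microtubule ends, Kif2c, a depolymerase that corrects faulty attachments at centromeres, was at 9.52, 8.76 and 9.31 in persistent PBS arrays, against 6.84, 5.38 and 6.20 in no-antigen PBS arrays. Every persistent array exceeded every no-antigen array, by 3.06 ± 0.64 on average (limma adjusted p = 0.015), a fold of 8.32. Kif22, which pushes chromosome arms away from the poles, was at 9.43, 9.02 and 9.41 in persistent PBS arrays, against 7.92, 6.64 and 7.22 in no-antigen PBS arrays. It rose by 2.03 ± 0.37 (limma adjusted p = 0.0066) without overlap. Kif18b, which trims the microtubules that reach the cell cortex, was at 7.22, 6.56 and 6.96 in persistent PBS arrays, against 4.95, 5.35 and 5.17 in no-antigen PBS arrays. It had the smallest adjusted p of the family (limma adjusted p = 8e-04) at 1.76 ± 0.23. Kif18a, which dampens the swings of aligned chromosomes, was at 6.35, 5.84 and 5.59 in persistent PBS arrays, against 4.72, 4.73 and 3.92 in no-antigen PBS arrays, and rose by 1.47 ± 0.30 (limma adjusted p = 0.013). The chromokinesin Kif4, which also shapes the midzone, was at 5.86, 6.66 and 5.27 in persistent PBS arrays, against 4.61, 5.18 and 4.71 in no-antigen PBS arrays. The highest no-antigen array stayed just below the lowest persistent array, and the difference of 1.10 ± 0.33 passed only in the blocked fit (limma adjusted p = 0.096, and 7e-04 blocked).

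Among motors of the midzone and cytokinesis, Kif20a, which takes part in assembling the midzone and bringing Aurora B there, was at 7.38, 6.89 and 6.33 in persistent PBS arrays, against 4.64, 3.18 and 3.68 in no-antigen PBS arrays. It differed by 3.03 ± 0.53 (limma adjusted p = 0.0048), with 2 of the no-antigen arrays below the median probe set, so that its fold of 8.19 is not exact. Kif23, the motor of the centralspindlin complex, was at 8.10, 6.87 and 7.30 in persistent PBS arrays, against 5.76, 4.89 and 5.43 in no-antigen PBS arrays, and rose by 2.07 ± 0.44 (limma adjusted p = 0.017). Kif20b, needed for the last step of cytokinesis, was at 8.55, 6.54 and 7.71 in persistent PBS arrays, against 6.67, 5.57 and 5.79 in no-antigen PBS arrays. In every replicate number the persistent array was the higher, but the groups overlapped, since replicate 1 was high and replicate 2 low in both. Its difference of 1.59 was called only in the blocked fit, with a standard error of 0.59 without and 0.19 with the block (limma adjusted p = 0.21, and 6.8e-06 blocked). Kif14, a partner of citron kinase in cytokinesis, stayed between 2.65 and 3.12 on all 16 arrays, and the testis depolymerase Kif2b between 2.65 and 3.02. Both lay far below the median probe set, where signal is not set apart from background.

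**Figure D2:**
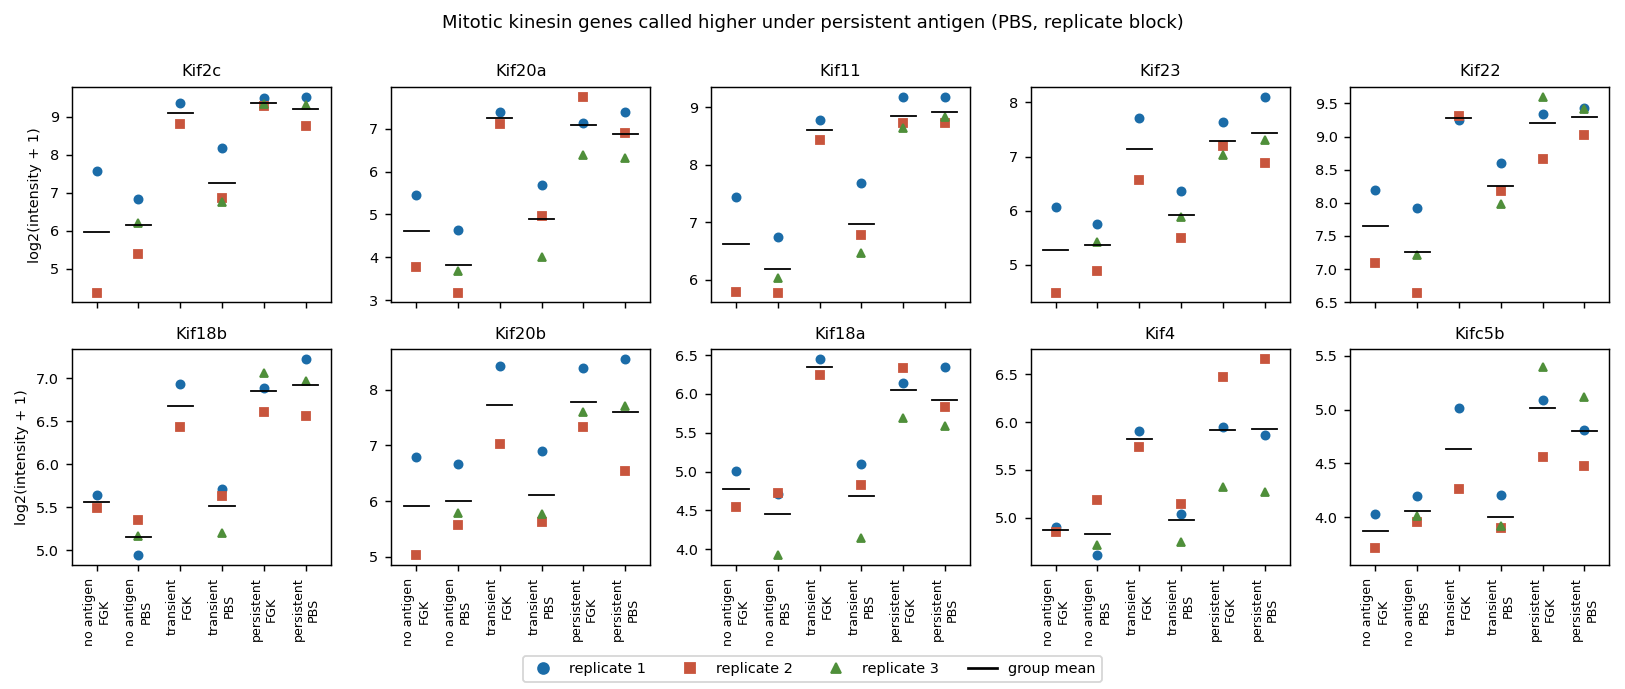
Log2(intensity + 1) per array for the 10 mitotic kinesins called higher under persistent antigen with PBS in the blocked fit, with each axis scaled to its gene, symbols for the replicate number and lines for group means. Transient FGK and both persistent groups sit high and the no-antigen groups low, with transient PBS near the no-antigen groups for most genes; replicate 1 tends to lie above replicate 2 within the low groups.

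Of the transport kinesins, Kif1b, a motor for mitochondria and synaptic vesicle precursors in neurons, was at 7.23, 6.95 and 6.81 in persistent PBS arrays, against 8.74, 8.30 and 8.60 in no-antigen PBS arrays. It fell by 1.55 ± 0.27 (limma adjusted p = 0.0048) with no overlap between the groups. Kif3c, a motor subunit related to the heterotrimeric kinesin-2, was at 6.56, 6.66 and 6.55 in persistent PBS arrays, against 6.94, 7.15 and 7.04 in no-antigen PBS arrays. The groups lay close but apart, and the difference of −0.45 ± 0.17 passed only in the blocked fit (limma adjusted p = 0.24, and 0.038 blocked). Kif5b, the ubiquitous heavy chain of conventional kinesin, was at 9.14, 9.06 and 8.24 in persistent PBS arrays and 9.13, 9.13 and 8.49 in no-antigen PBS arrays, replicate 3 being low in both. Its difference was −0.10 ± 0.38 (limma adjusted p = 0.97, 95% interval −0.92 to 0.71). Kif3b, a subunit of kinesin-2, was at 7.35, 6.77 and 6.57 in persistent PBS arrays and 7.89, 6.85 and 7.10 in no-antigen PBS arrays. Kif13b, a carrier of membrane cargo, was at 7.36, 6.27 and 7.54 in persistent PBS arrays and 7.67, 6.29 and 7.28 in no-antigen PBS arrays. Both overlapped and neither was called, with differences of −0.38 ± 0.31 and −0.02 ± 0.53. The other 10 transport kinesins had differences between −0.17 and 0.20, none called in either fit.

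In the remaining class Kif24, a centriole-bound depolymerase that restrains cilium growth, was at 5.76, 5.66 and 5.71 in persistent PBS arrays, against 4.73, 5.05 and 4.58 in no-antigen PBS arrays. It rose by 0.93 ± 0.18 (limma adjusted p = 0.01). Kif2a, a depolymerase used at spindle poles and in neurites, was at 8.83, 8.26 and 9.09 in persistent PBS arrays, against 8.01, 7.88 and 7.96 in no-antigen PBS arrays. These did not overlap, and the difference of 0.78 ± 0.31 passed only in the blocked fit (limma adjusted p = 0.26, and 0.0053 blocked). Another of the 5 probe sets of Kif2a was called without the block, and the remaining ones were not called in either fit. Kif21b, a motor that limits microtubule growth and is known in T cells and neurons, was at 7.86, 7.99 and 7.85 in persistent PBS arrays, against 8.02, 8.23 and 8.22 in no-antigen PBS arrays. All persistent arrays were slightly lower, by 0.25 on average (difference −0.25 ± 0.19), which was not called in either fit (limma adjusted p = 0.69, and 0.29 blocked). The motile cilium and Hedgehog motors Kif6, Kif9, Kif27 and Kif7 and the other members of the class were not called in this comparison.

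**Figure D3:**
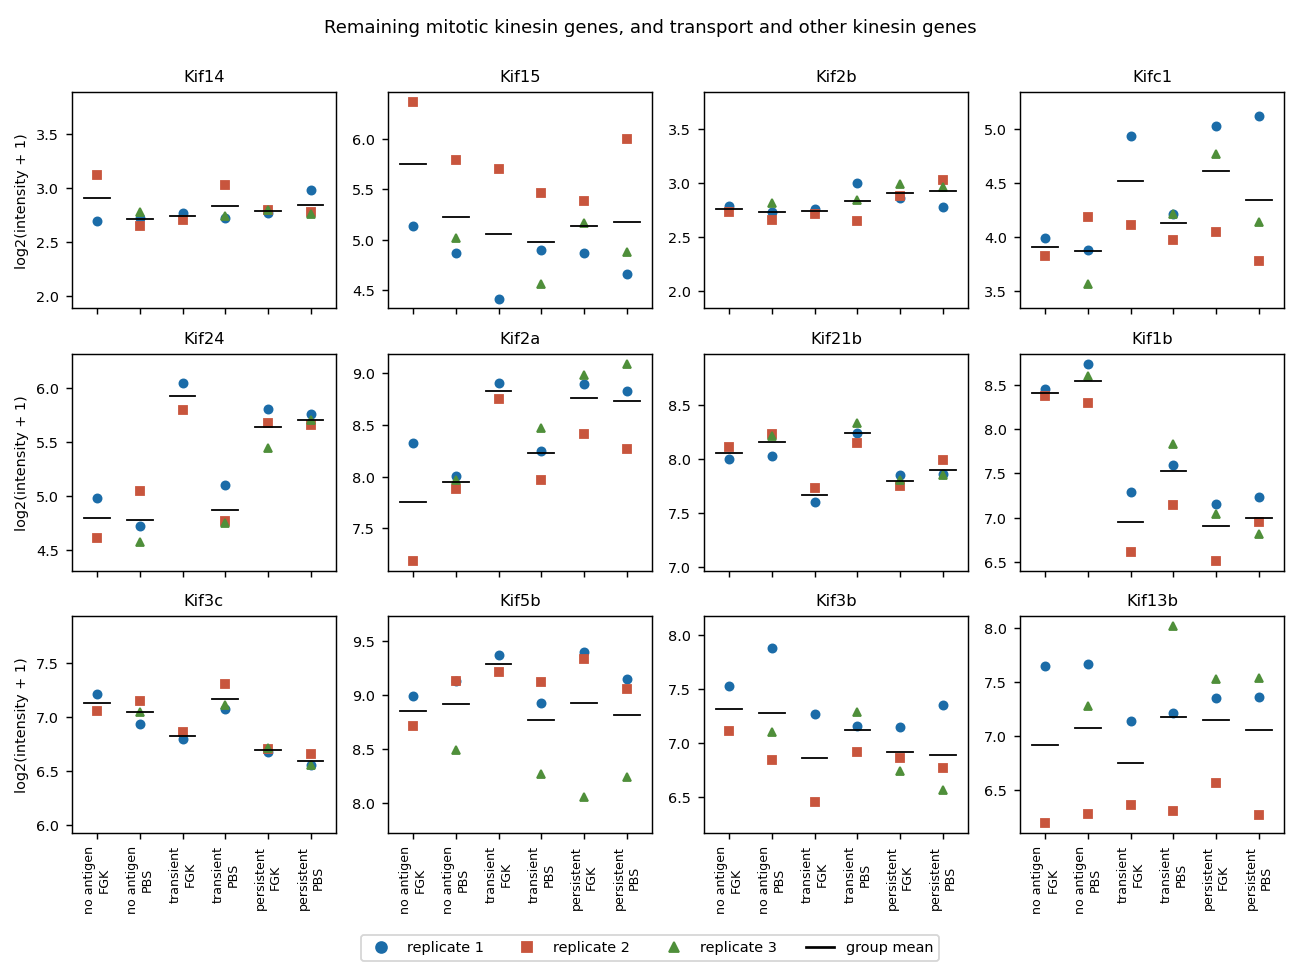
Log2(intensity + 1) per array for the 4 mitotic kinesins that were not called and for 8 transport and remaining kinesins, with each axis scaled to its gene, symbols for the replicate number and lines for group means. Kif1b is high in both no-antigen groups and low wherever antigen was given, Kif24 and Kif2a are highest in transient FGK and both persistent groups, and Kif14 and Kif2b stay near the floor.

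What remained after a passing exposure was addressed by transient antigen against none under PBS, with the same no-antigen arrays as above. No kinesin was called (0 of 41, where 0.126% of all genes were called, 0.0934% higher and 0.033% lower), and 2 had an unadjusted p under 0.05, as did 4.64% of all genes. In the blocked fit 1 was called higher and 1 lower, where 2.89% of all genes were called (2.02% higher and 0.868% lower). At an unadjusted p under 0.05 the blocked fit held 7, 5 of them mitotic, where 15.1% of all genes passed. Kif1b was at 7.60, 7.14 and 7.83 in transient PBS arrays, between the persistent and the no-antigen levels given above and below every no-antigen array. Its difference of −1.02 ± 0.27 passed only in the blocked fit (limma adjusted p = 0.32, and 0.0017 blocked) and was −1.14, −1.16 and −0.77 within replicates 1, 2 and 3. Kif22 was at 8.60, 8.18 and 7.98 in transient PBS arrays, all above the no-antigen PBS arrays, and its difference of 0.99 ± 0.37 was called only in the blocked fit (limma adjusted p = 0.85, and 0.022 blocked). Kif11 at 7.68, 6.78 and 6.47, Kif20a at 5.69, 4.97 and 4.01 and Kif2c at 8.18, 6.85 and 6.76 in transient PBS arrays overlapped the no-antigen PBS arrays. Their differences of 0.79 ± 0.42, 1.06 ± 0.53 and 1.12 ± 0.64 were not called in either fit. The blocked count of 2 was 1 without no-antigen PBS replicate 2 or transient PBS replicates 1 or 2, and 5 without either no-antigen FGK array. The mitotic median difference was 0.25, the transport median 0.11 and that over all genes 0.03. Within all 3 replicate numbers 7 of 14 mitotic and 6 of 15 transport kinesins were higher, where 23.6% of all genes were.

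The duration of antigen was addressed by persistent against transient arrays under PBS, the same arrays as in the comparisons with no antigen. Of the family 3 of 41 genes were called higher and 0 lower, where 0.929% of all genes were called (0.605% higher and 0.324% lower). With the block 11 were higher and 1 lower, where 11.4% of all genes were called (5.99% higher and 5.44% lower). The mitotic kinesins accounted for 2 of 14 called higher, and 10 of 14 in the blocked fit, the median difference being 1.14 beside −0.22 over transport kinesins and −0.05 over all genes. Kif11 was 1.94 ± 0.42 higher under persistent antigen (limma adjusted p = 0.046), Kif18b 1.40 ± 0.23 higher (limma adjusted p = 0.011) and Kif24 0.83 ± 0.18 higher (limma adjusted p = 0.048). In all of these genes the persistent PBS arrays lay above the transient PBS arrays, which for Kif18b were at 5.71, 5.63 and 5.21 and for Kif24 at 5.11, 4.77 and 4.76. The blocked fit added Kif2c, Kif20a, Kif23, Kif22, Kif20b, Kif18a, Kif4 and Kifc5b, with differences of 0.79 (Kifc5b) to 1.97 (Kif20a) and blocked limma adjusted p of 2.3e-05 (Kif23) to 0.0049 (Kif22). Kif3c was at 7.08, 7.30 and 7.11 in transient PBS arrays, above every persistent array, and its difference of −0.57 ± 0.17 passed only in the blocked fit (limma adjusted p = 0.17, and 0.013 blocked). Kif1b differed by −0.53 ± 0.27 and was not called in either fit (limma adjusted p = 0.5, and 0.057 blocked). Leaving out single arrays took the count of 3 to 0 (transient PBS replicate 3, persistent PBS replicates 1 or 3) or to 1 (no-antigen PBS replicate 3, transient PBS replicate 2, persistent PBS replicate 2, either transient FGK array or any persistent FGK array), and kept the blocked count between 11 and 14.

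The effect of giving FGK was tested by setting FGK against PBS within each antigen regime. The state of the dendritic cells themselves was not measured. Under transient antigen FGK arrays were higher without overlap for 10 of 14 mitotic kinesins, where 10.5% of all genes were higher and 11.1% lower without overlap, and the median difference was 1.10, beside −0.15 over transport kinesins and −0.03 over all genes. Of the 41 kinesins 2 were called higher and 0 lower, where 0.638% of all genes were called (0.522% higher and 0.115% lower). In the blocked fit 11 were higher, 9 of them mitotic, and 1 lower, where 10.5% of all genes were called (7.59% higher and 2.92% lower). The calls without the block were Kif18a and Kif24. Kif18a was at 6.45 and 6.24 in transient FGK arrays, against 5.10, 4.83 and 4.14 in transient PBS arrays, a difference of 1.66 ± 0.34 (limma adjusted p = 0.041). Kif24 was at 6.05 and 5.80 in transient FGK arrays, against 5.11, 4.77 and 4.76 in transient PBS arrays, a difference of 1.05 ± 0.20 (limma adjusted p = 0.038). For both genes each FGK array lay above the highest PBS array. The count of 2 was 0 without any 1 transient array, no-antigen PBS replicate 1, persistent PBS replicate 3 or persistent FGK replicates 1 or 3, and 1 without persistent PBS replicate 2, while the blocked count stayed between 8 and 12.

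The other increases under transient antigen passed only in the blocked fit. Kif20a, the midzone motor, was at 7.40 and 7.12 in transient FGK arrays, against 5.69, 4.97 and 4.01 in transient PBS arrays, a difference of 2.37 ± 0.59 (limma adjusted p = 0.092, and 0.00063 blocked). Kif2c was at 9.37 and 8.81 in transient FGK arrays, against 8.18, 6.85 and 6.76 in transient PBS arrays (1.83 ± 0.72, limma adjusted p = 0.37, and 0.008 blocked). Kif11 was at 8.77 and 8.42 in transient FGK arrays, against 7.68, 6.78 and 6.47 in transient PBS arrays, a difference of 1.62 ± 0.47 (limma adjusted p = 0.15, and 0.00047 blocked). In each of these the lower FGK array was above the highest PBS array. Kif20b, Kif18b, Kif23, Kif22 and Kifc5b were also called in the blocked fit, with differences of 0.70 (Kifc5b) to 1.55 (Kif20b) in it, and so was Kif2a at 0.71. Kif4 lay higher without overlap (5.90 and 5.74 in transient FGK arrays, against 5.04, 5.14 and 4.74 in transient PBS arrays) but was not called in either fit (limma adjusted p = 0.46, and 0.097 blocked). Kif21b was at 7.61 and 7.74 in transient FGK arrays, against 8.24, 8.15 and 8.33 in transient PBS arrays, and its difference of −0.57 ± 0.21 was called only in the blocked fit (limma adjusted p = 0.31, and 0.035 blocked). Kif1b was at 7.29 and 6.61 in transient FGK arrays and 7.60, 7.14 and 7.83 in transient PBS arrays, overlapping, and its difference of −0.57 ± 0.30 was not called (limma adjusted p = 0.65, and 0.11 blocked).

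Under persistent antigen FGK arrays and PBS arrays were close. No kinesin was called in either fit (0 of 41, where 0% of all genes were called in either fit), with 0 at an unadjusted p under 0.05 in limma without and with the block, where 0.605% and 2.66% of all genes were. Differences over the family ran from −0.28 to 0.27. Kif11 was at 9.18, 8.73 and 8.64 in persistent FGK arrays and at 9.18, 8.73 and 8.83 in persistent PBS arrays, a difference of −0.06 ± 0.42 with a 95% interval of −0.95 to 0.83, and of −0.51 to 0.39 in the blocked fit. For Kif2c the blocked interval ran from −0.60 to 0.94 and for Kif1b from −0.46 to 0.27, so changes of the size seen under transient antigen in Kif11 lay outside the interval of the blocked fit. Without antigen no kinesin was called either (0 of 41 in both fits, where 0% of all genes were called, and 0.0055% in the blocked fit). At an unadjusted p under 0.05 there were 0 (1.74% of all genes), and 2 in the blocked fit (5.3% of all genes). No-antigen FGK arrays spread widely between the replicates: Kif2c was at 7.58 and 4.36 there, against 6.84, 5.38 and 6.20 in no-antigen PBS arrays, and Kif11 at 7.45 and 5.80 in no-antigen FGK arrays, against 6.75, 5.78 and 6.03 in no-antigen PBS arrays. In both genes replicate 1 was high and replicate 2 low, and the difference was −0.17 ± 0.72 for Kif2c and 0.44 ± 0.47 for Kif11.

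**Figure D4:**
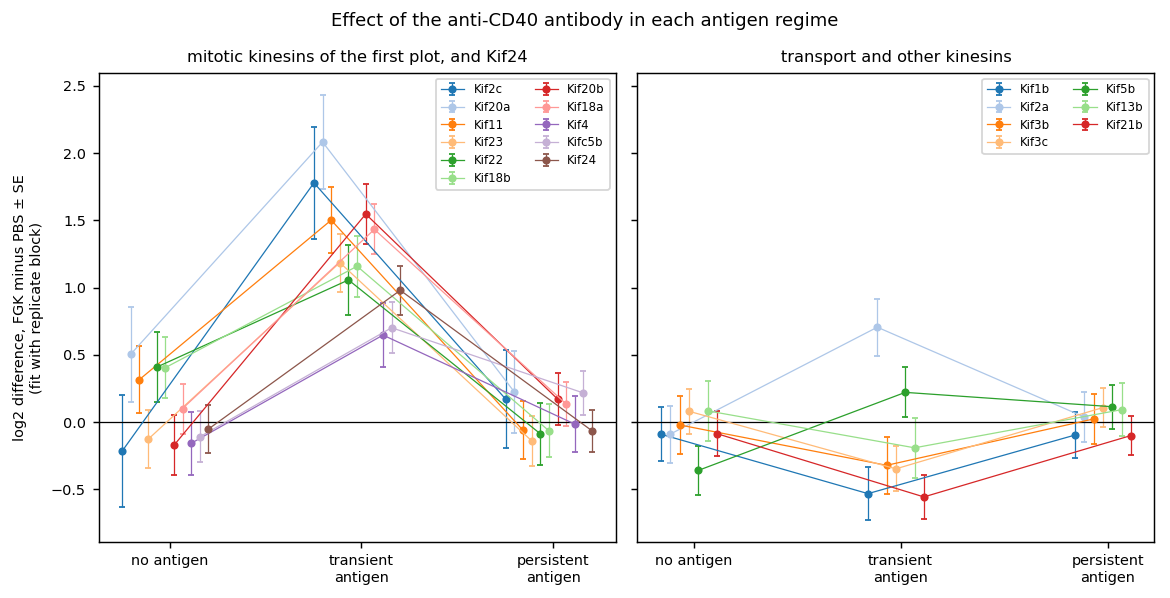
Log2 difference between FGK and PBS in each antigen regime with bars of ± 1 standard error of the blocked fit, for the 10 mitotic kinesins of the earlier plot and Kif24 (left) and for 7 transport and remaining kinesins (right). On the left all genes peak under transient antigen, between 0.65 and 2.08, and lie between −0.22 and 0.51 in the other regimes.

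Whether the effect of FGK differed between regimes was tested by interaction terms. Without the block no kinesin was called in any of them (0 of 41 each, where 0% of all genes were called, with 4, 0 and 5 kinesins at an unadjusted p under 0.05 for transient against no antigen, persistent against no antigen and persistent against transient antigen, beside 4.92%, 0.863% and 3.45% of all genes). In the blocked fit the FGK effect was larger under transient than under no antigen for 4 genes (3.69% of all genes called, 3.09% higher and 0.605% lower), Kif20b, Kif18a, Kif23 and Kif24. It was smaller under persistent than under transient antigen for 7 genes (1.79% of all genes called, 0.275% higher and 1.52% lower), Kif20a, Kif11, Kif20b, Kif23, Kif18a, Kif18b and Kif24. For persistent against no antigen 0 of 41 were called in the blocked fit (0% of all genes). No transport kinesin was called in any of these terms, and the class medians for persistent against transient antigen were −1.17 for mitotic and 0.11 for transport kinesins. Single arrays decided these blocked counts: that of 4 was 0 without no-antigen FGK replicate 2, and that of 7 was 0 without transient FGK replicate 1, without persistent PBS replicate 3 or without persistent FGK replicate 1.

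With FGK given, antigen was compared again. Transient FGK arrays against no-antigen FGK arrays gave 1 kinesin called higher and 0 lower, where 0.572% of all genes were called (0.423% higher and 0.148% lower). With the block 12 were higher and 2 lower, where 14% of all genes were called (10.5% higher and 3.48% lower). The call without the block was Kif24, at 6.05 and 5.80 in transient FGK arrays, against 4.98 and 4.61 in no-antigen FGK arrays (1.13 ± 0.22, limma adjusted p = 0.041). The blocked fit added Kif2c, Kif20a, Kif11, Kif23, Kif20b, Kif22, Kif18a, Kif18b, Kif4 and Kifc5b, from 0.76 (Kifc5b) to 3.11 (Kif2c), and Kif2a at 1.07. Kif1b was at 7.29 and 6.61 in transient FGK arrays, against 8.46 and 8.38 in no-antigen FGK arrays, and its difference of −1.47 ± 0.33 was called only in the blocked fit (limma adjusted p = 0.064, and 0.00011 blocked). Kif13a, an endosome motor, was at 3.48 and 4.33 in transient FGK arrays and 4.24 and 4.82 in no-antigen FGK arrays, overlapping and mostly below the median probe set, and was called lower only in the blocked fit (−0.63, limma adjusted p = 0.02 blocked). The count of 1 was 6 without no-antigen FGK replicate 1, 1 without no-antigen PBS replicate 2 or persistent PBS replicate 2, and 0 without any other single array, while the blocked count stayed between 10 and 16.

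Persistent FGK arrays against no-antigen FGK arrays gave 7 kinesins called higher and 1 lower, where 2.37% of all genes were called (1.64% higher and 0.737% lower). The blocked fit gave 12 higher and 2 lower, where 16.4% of all genes were called (10.9% higher and 5.5% lower). The genes called without the block were Kif2c, Kif20a, Kif11, Kif23, Kif18b, Kifc5b and Kif24, and Kif1b as the decrease. The blocked fit added Kif20b, Kif22, Kif18a, Kif4 and Kif2a, from 0.90 (Kif2a) to 1.94 (Kif20b). Kif2c was at 9.49, 9.29 and 9.32 in persistent FGK arrays, against 7.58 and 4.36 in no-antigen FGK arrays, a difference of 3.40 ± 0.72 (limma adjusted p = 0.024). Kif1b was at 7.15, 6.51 and 7.04 in persistent FGK arrays, against 8.46 and 8.38 in no-antigen FGK arrays, a difference of −1.52 ± 0.30 (limma adjusted p = 0.018). Neither gene overlapped between these groups. Kif9, a motor of motile cilia, was at 3.37, 3.44 and 3.51 in persistent FGK arrays, against 3.69 and 4.25 in no-antigen FGK arrays, all below the median probe set, and was called lower only in the blocked fit (−0.58, limma adjusted p = 0.033 blocked). The count of 8 was 0 without no-antigen FGK replicate 2 or persistent FGK replicate 3, 1 without persistent FGK replicate 1 and 2 without persistent FGK replicate 2. It was 4 without no-antigen PBS replicate 3 or transient PBS replicate 2, and 5 without no-antigen PBS replicate 1, transient PBS replicate 1 or persistent PBS replicate 3, while the blocked count stayed between 11 and 15.

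Persistent FGK arrays against transient FGK arrays gave no call in either fit (0 of 41, where 0.0055% of all genes were called, and 0.077% in the blocked fit, 0.055% higher and 0.022% lower), and 0 kinesins at an unadjusted p under 0.05 in limma without and with the block, where 1.95% and 6.11% of all genes were. The mitotic median difference was 0.09. Kif11, for instance, differed by 0.25 ± 0.47, with a 95% interval of −0.14 to 0.89 in the blocked fit. Transient FGK arrays were also set against persistent PBS arrays, to ask whether levels under short antigen with FGK differed from those under lasting antigen. No kinesin was called (0 of 41, where 0% of all genes were called, and 0.055% in the blocked fit, 0.022% higher and 0.033% lower), with 1 at an unadjusted p under 0.05 (3.48% of all genes), and 3 in the blocked fit (10.4% of all genes). The mitotic median difference was −0.11, and Kif2c differed by −0.11 ± 0.72, Kif22 by −0.01 ± 0.41 and Kif1b by −0.05 ± 0.30. The blocked intervals were wide enough to hold changes of −1.03 to 0.72 for Kif2c and −0.42 to 0.41 for Kif1b.

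Taken array by array, the median level over the 14 mitotic kinesins was 4.79, 5.04 and 4.86 in no-antigen PBS arrays, 5.39, 5.30 and 4.65 in transient PBS arrays and 6.78, 6.55 and 5.96 in persistent PBS arrays. With FGK it was 5.30 and 4.52 without antigen, 6.69 and 6.34 with transient and 6.51, 6.54 and 6.04 with persistent antigen. Every transient FGK and persistent array thus lay above every transient PBS and no-antigen array. The transport median over 15 genes ran from 4.95 to 5.85 over all 16 arrays, and no group lay apart from all others. Of the family 22 members had a mean at or above that of the median gene (4.94), and 19 lay below it. Those 19 included Kif5a and Kif5c, the neuronal forms of conventional kinesin, Kif1a, which carries synaptic vesicle precursors, and Kif26a, Kif27 and Kif28, at 2.62 to 3.19 on all arrays.

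Genes that work with the motors were read from lists made for this purpose. Of 22 mitotic partners 21 were measured, and under persistent antigen with PBS 17 were called higher and 0 lower, 19 and 0 in the blocked fit, with a median difference of 2.70. Over all genes 2.2% were called higher, and 9.93% in the blocked fit. The largest were Birc5 (3.75 ± 0.52, limma adjusted p = 0.0011), a subunit of the chromosomal passenger complex that Kif20a brings to the midzone, and the checkpoint kinase Bub1 (3.25 ± 0.67, limma adjusted p = 0.013). Cdk1, the kinase that starts mitosis, followed at 3.22 ± 0.52, then Nusap1 (3.02 ± 0.72), which bundles spindle microtubules, and Espl1 (2.87 ± 0.58), which cuts cohesin. Cenpe, itself a kinesin of the kinetochore under another name and so outside the 41 genes, rose by 2.83 ± 0.36 (limma adjusted p = 0.00075). With FGK under transient antigen 0 of these partners were called and 18 in the blocked fit, the median difference being 1.68, where 0.638% and 10.5% of all genes were called. Of 17 transport partners 13 were measured and 0 were called, with Klc4, a kinesin light chain, lower only in the blocked fit (−0.50 ± 0.21, limma adjusted p = 0.31, and 0.047 blocked). Of 22 genes of dynein and dynactin, the motor complex that runs the opposite way to most kinesins, 20 were measured and 0 were called. In the blocked fit 6 of the 20 were higher, where 9.93% of all genes were, among them Dctn3 (0.98 ± 0.43) and the dynein regulator Nde1 (0.92 ± 0.32), each with a blocked limma adjusted p of 0.00037.

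Probe sets of the same gene did not always move alike. The 41 genes had 104 probe sets, and 26 genes had several. Over the 10 comparisons of groups, 68 gene and comparison pairs were called in either fit, 48 of them for genes with further probe sets. In 18 of these 48 a further probe set had the opposite sign, in 9 of them at a mean above the median probe set, and it passed in 0. Under persistent against no antigen with PBS, further probe sets rose for Kif22 (2.20, limma adjusted p = 0.0092), Kif2c (1.96, limma adjusted p = 0.042) and Kif2a (1.02, limma adjusted p = 0.017). More passed only in the blocked fit, for Kif11 (2.72, limma adjusted p = 7.1e-07 blocked) and Kif20b (1.20 and 0.89, limma adjusted p = 7e-04 and 0.0013 blocked). So did those of Kif22 (1.17, limma adjusted p = 0.004 blocked) and Kif23 (0.59, limma adjusted p = 0.03 blocked). Others were not called in either fit: both remaining ones of Kif2c differed by 0.17, and further ones differed by 0.40 for Kif11, 0.18 for Kif23 and 0.15 for Kif18a, and by 0.003 and 0.10 for Kif24. Likewise uncalled were those of Kif20b at 0.27, Kif2a at 0.19, −0.18 and 0.02, and Kif3c at 0.11. Kif1b had 7 probe sets: another of them was lower in the blocked fit (limma adjusted p = 0.00077 blocked), 1 differed by 0.13 and 1 by −0.04, so that the decrease was seen in some of the gene's probe sets.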

How the data were processed

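RNA of sorted T cells was amplified in 2 rounds, labelled with biotin and hybridised to 1 Affymetrix mouse array per sample, per the labels' protocols. The deposited values are linear intensities of 45101 probe sets from the authors' RMA, named in the submitters' processing notes with a version not given in the sources used here. They were used as log2(intensity + 1) without further normalization, which shrinks differences between dim genes. Of the probe sets, 64 were array controls and 932 had several symbols. The 34945 with 1 symbol gave 18193 genes.

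A linear model of 6 group means over all 16 arrays was fitted with an intensity trend, using R 4.3.3 and limma 3.58.1. It had no block, and calls are p-values under 0.05 after Benjamini-Hochberg adjustment over all genes. There were 10 comparisons of groups and 3 interaction terms, 13 in all. Scripts were tested on simulated data.

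Pairing was checked on the same values as were used for the calls. Deviations from group means correlated at 0.481 to 0.806 in 36 pairs of arrays with the same replicate number, against a median of −0.525 in 70 other pairs, and 16 of 16 arrays correlated best with their own number. Deviations cancel within each group, so positive values for same numbers force negative ones in other pairs. The negative median is thus no separate evidence. The pairing of arrays by number thus comes from the data, since the labels state none. The blocked fit is given where it ends or adds a call, or where a count moves by over 1.5 times. A group left with 1 array is assumed to vary like the others.

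Values per array are given for members called in either fit and for the 6 transport and remaining kinesins with the highest means, and the rest are summarised. Kif14, Kif15, Kif2b and Kifc1, the mitotic kinesins not called, and the promoters shown were singled out after their values were seen. The members, lists, motifs and rule were chosen with earlier results of these data known. Promoters come from RefSeq.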

Additional observations from a re-analysis of the deposited data

Results flagged for a closer look

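In the blocked fit the effect of FGK differed between antigen regimes for 7 kinesins, which brought 11 results here because a test of the difference itself passed. Between transient and no antigen the FGK effect was larger under transient antigen by 1.33 for Kif18a, 1.72 for Kif20b, 1.32 for Kif23 and 1.03 for Kif24 (limma adjusted p = 0.0077, 0.0049, 0.019 and 0.026 with the block). Between persistent and transient antigen it differed by −1.56 for Kif11, −1.30 for Kif18a, −1.22 for Kif18b, −1.86 for Kif20a, −1.38 for Kif20b, −1.32 for Kif23 and −1.04 for Kif24 (limma adjusted p = 0.021, 0.012, 0.041, 0.048, 0.022, 0.023 and 0.031 with the block), being smaller under persistent antigen. All of these rest on 2 arrays of transient FGK, and the first set also on 2 arrays of no-antigen FGK. Over 24 settings of the blocked fit the sign was the same for each of the 11, and Kif11 passed the threshold in 18 of them and Kif20a in 10. Without the block none of the 11 passed, the limma adjusted p being 0.72 to 1. Groups of 2 or 3 arrays were too small for a search for outlying arrays.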

How the results depend on the processing

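No result changed its direction under any alternative tried. Over 79 results for single genes there were 1708 settings with the same call, 171 that added a call and 168 that ended it, and of the 79 calls of the blocked fit 45 held in all its alternatives, with the same sign in all 79. Sizes held less well: with the mean of probe sets 46 of 79 differences were smaller by over 1.5 times, and without no-antigen FGK replicate 2 this was so for 17. Counts of called kinesins follow in the order transient against no, persistent against no and persistent against transient antigen with PBS, transient against no and persistent against no antigen with FGK, and FGK against PBS under transient antigen, being 0, 9, 3, 1, 8 and 2. The replicate block gave 2, 14, 12, 14, 14 and 12, and 4 and 7 for the interaction terms of transient against no and persistent against transient antigen. A block for 4 runs of array numbers gave 1, 15, 13, 14, 15 and 12, and 7 and 7. Fits of the compared groups alone gave 0 for persistent against transient antigen with PBS, transient against no antigen with FGK, persistent against no antigen with FGK and FGK under transient antigen. Array weights gave 1, 15, 18, 0, 4 and 0, the 18 being 11 higher and 7 lower. Cyclic loess, which shifted the median of arrays by −0.10 to 0.12, gave 1, 5 and 3 for transient against no antigen and persistent against transient antigen with PBS and transient against no antigen with FGK. Transient against no antigen with FGK had 2 without the intensity trend, 3 without genes below the median and 2 with the mean of probe sets. Without replicate 2, chosen after seeing the data, it had 0, persistent against transient antigen with PBS 5 and persistent against no antigen with FGK 3. Leaving out single arrays or all of replicate 2 was also tried. The counts were 0 to 0, 5 to 12, 0 to 5, 0 to 6, 0 to 9 and 0 to 3 in that order.

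The blocked counts were tried under alternatives chosen after seeing the data. For transient against no antigen with PBS the 2 were 4 with the compared groups alone, 4 without genes below the median, 0 with the mean of probe sets, 7 with array weights and 1 without replicate 2. The interaction of transient against no antigen had 7 with array weights and 1 without replicate 2, and that of persistent against transient antigen 4 with the mean of probe sets. Single arrays or all of replicate 2 were left out here too. Counts were then 1 to 5, 13 to 14, 11 to 14, 10 to 16, 11 to 15 and 8 to 12. For these interactions they were 0 to 9 and 0 to 8. Values from single arrays over 1.5 times away are given with the results or here. For the first interaction they were 9 without no-antigen FGK replicate 1 and 1 without transient FGK replicate 1. For the second they were 4, 3 and 2 without transient PBS replicates 1, 2 and 3, and 1 without transient FGK replicate 2. The second also had 2 without persistent PBS replicate 1 and 4 without persistent FGK replicate 3. The numbers of replicates pair the arrays, and the block changed no other kinesin call than those given. Causes were not tested. Members below the median probe set, 19 of 41 by the median gene, have folds that are limited by signal over background, and transient and no antigen with FGK rest on 2 arrays each.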
